A study of Mus musculus with 185 samples.

Results

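The genes described here are Cd207, which encodes langerin, and 9 other C-type lectin receptor genes read in mouse epidermal Langerhans cells (LCs), namely Clec4f, Ly75, Clec7a, Clec4n, Clec4d, Clec4e, Clec12a, Clec10a and Clec4a2. They were chosen by name as receptors of this family, with earlier results of these data known. The paper had already reported a difference in Cd207 between the groups of cells compared below. All 10 were found among the 45661 genes of the count table. The cells came from bone marrow chimeras on the C57BL/6 (B6) background, made by transplanting irradiated CD45.1 Cd207DTR hosts with CD45.2 wild-type (WT) bone marrow. Diphtheria toxin (DT) was inoculated 2 months after transplantation at 5 ng per gram of body weight, and single epidermal LCs were sorted another 2 months later. Host LCs (CD45.1) are called embryo-derived LCs (eLCs) and carried the Cd207DTR allele, which places the DT receptor in the Cd207 locus. Donor LCs (CD45.2) are called monocyte-derived LCs (moLCs) and carried the WT allele. Both groups came from the same kind of DT-treated host, but only the host's own cells had been irradiated and carried the DT receptor, and the eLCs are those present in the skin after this dose. Irradiation, allele and origin therefore went together in every cell and cannot be told apart in these data. The paper also reports higher CD207 protein in moLCs, both in such chimeras and in Cd207DTR mice given a high DT dose. In the latter mice, by its account, the DT receptor transgene is at similar levels in moLCs and eLCs. Those experiments were not analysed here. Sex and age were not given in the labels, and no animal was named for any cell. Each origin was thus treated as 1 sample, cells were not counted as replicates, and the comparisons below carry counting intervals in place of tests and p-values.

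C-type lectin receptors are surface proteins with a carbohydrate-recognition domain, through which many of them bind sugars of microbes or of damaged cells. Langerin, the defining receptor of LCs, binds mannose and related sugars, is taken up into the cell with its cargo and builds the Birbeck granules that are known from LCs. Other members signal rather than mainly carry cargo. Dectin-family receptors (Clec7a, Clec4n, Clec4d, Clec4e) activate the kinase Syk, some through the adaptor FcRγ, whereas receptors with an inhibitory motif (Clec12a, Clec4a2) recruit phosphatases.

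Cd207 and Clec4f are neighbors on chromosome 6 and are the 2 members past the size rule defined below, so the 250 bases before their RefSeq start sites are shown. Both lie on the minus strand of GRCm38.p6, the assembly also called mm10, at chr6:83677858-83678107 for Cd207 and chr6:83656117-83656366 for Clec4f, and both were taken from RefSeq. The RefSeq start of Clec4f lies inside the gene as GENCODE gives it, so the last bases of its window overlap the first exon of that annotation. Capitals mark the matches to 4 short motifs searched on both strands, AP-1 (TGANTCA), RUNX (TGTGGT), ETS (GAGGAA) and a TATA box (TATAAA).
Cd207: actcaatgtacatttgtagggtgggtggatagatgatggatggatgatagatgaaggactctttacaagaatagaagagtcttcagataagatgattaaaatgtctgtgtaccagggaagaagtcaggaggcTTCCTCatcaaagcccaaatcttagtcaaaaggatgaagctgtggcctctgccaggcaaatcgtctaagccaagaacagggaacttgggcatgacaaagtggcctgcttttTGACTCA
Clec4f: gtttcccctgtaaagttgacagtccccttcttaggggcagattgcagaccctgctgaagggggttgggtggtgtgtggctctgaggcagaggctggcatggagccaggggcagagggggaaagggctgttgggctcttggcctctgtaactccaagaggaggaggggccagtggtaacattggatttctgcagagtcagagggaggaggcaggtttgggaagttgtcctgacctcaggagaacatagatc
The Cd207 promoter held 1 AP-1 match, beginning 7 bases before the start, which 6.75% of 32851 promoters of this length also held. It held 1 ETS match, on the opposite strand and beginning 118 bases before the start, as did 23.3% of promoters. Neither promoter held the RUNX letters (14% of promoters) or the TATA letters (12.4%), and the Clec4f promoter held none of the 4 motifs in this window. The GC content was 43.6% for Cd207 and 57.2% for Clec4f. A match is a description of letters and not a binding site.

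The cells were sorted onto 2 plates. After a filter at 5% of mitochondrial reads per cell, which removed 3 moLCs of plate 2, there remained 67 moLCs with 29 eLCs on plate 1 and 36 moLCs with 50 eLCs on plate 2. These 182 cells, used throughout, had between 432614 and 4525429 reads (median 2948819 for moLCs, 2779080 for eLCs). For each origin the reads of its cells were added up and scaled to counts per 1000000 reads (CPM). Intervals on sums (exact Poisson), on shares of cells (exact Clopper-Pearson) and on ratios (exact binomial) are at 95%. Where no cell of a group had a read, the limit given is instead the share that 3 cells of that group make. All of these cover counting error at most. The kit had no molecular identifiers, so PCR copies count as reads and intervals on sums and ratios can be too narrow. Those on shares take the cells of an origin as separate draws and do not cover differences between animals. The LC label was checked against 12 other LC markers, such as Epcam, Cd74 and H2-Aa, and all 12 passed a share of 25% of cells with a read in both origins. The sort gate itself had used the proteins of several of them (Epcam, Itgax, Cd24a and MHC class II). The summed level of these markers had a median of 212919 CPM over moLCs (lowest cell 14549 CPM) and of 222876 CPM over eLCs (lowest cell 117742 CPM). No keratinocyte, T cell or melanocyte marker (8, 7 and 5 genes) was read in 25% of the cells of either origin. In single cells their sums reached 686 CPM in a moLC for keratinocyte, 413 CPM in an eLC for T cell and 45.5 CPM in a moLC for melanocyte markers, and the median cell had none of any of them. Krt14 and Sfn were read in 10.7% and 12.6% of moLCs and in 3.80% of eLCs each, while Krt1, Krt15, Dsp, Cd3e, Trdc, Thy1, Dct, Tyr, Mlana and Tyrp1 were at 0 in all kept cells. Of 7 dermal DC1 markers, 1 was read in 25% of the cells of each origin, with sums up to 1318 CPM in a moLC and 854 CPM in an eLC. Of 5 dermal DC2 markers, 3 passed that share in moLCs and 2 in eLCs, with sums up to 4037 and 2443 CPM. The monocyte or macrophage markers (9 genes) read in 25% of cells included Adgre1 in both origins, Lyz2 in moLCs only (41.7% against 22.8% of eLCs; log2 ratio 1.16) and Cd14 in eLCs only (19.4% against 26.6%). The summed level of the whole list had a median of 352 CPM over moLCs (0 to 4821 CPM) and 354 CPM over eLCs (0 to 1336 CPM). Ly6c2, Fcgr1 and Cx3cr1 were at 0 in moLCs, as were Ccr2 and Fcgr1 in eLCs. The part of such markers in the results below was not tested beyond leaving out 2 moLCs.

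Langerin was the most abundant of these receptors in both origins, and only langerin and Clec4f stood apart between origins by the size rule used here. Per kilobase of exon and 1000000 reads (RPKM, the scale on which the members are compared with each other), Cd207 had 17239 in moLCs and 1419 in eLCs. Clec7a followed with 531 in moLCs and 620.5 in eLCs, then Clec4n with 196 and 128, Ly75 with 58.4 and 67.6 and Clec4d with 20.3 and 12.7. These 5 genes had the same order in both origins. The other 5 were below 10 RPKM in both origins, and in moLCs Clec4f (8.37) came next, ahead of Clec4e (2.24, nearly all from 1 cell) and Clec4a2 (1.15), whereas in eLCs Clec4a2 (1.01) came next, ahead of Clec10a (0.858). A gene passed the size rule if 25% or more of the cells of an origin had a read of it and its summed CPM differed 2-fold or more, in 1 direction, on each plate and on both together. Of all 6522 genes read in 25% of cells, 53 (0.813%) passed it as higher in moLCs and 79 (1.21%) as higher in eLCs. Of the 10 members, 7 were read in 25% of cells. Of these, Cd207 and Clec4f passed as higher in moLCs, and none passed as higher in eLCs. Clec4f reached the 25% share through moLCs alone (28.2%, against 1.27% of eLCs), so its pass in that direction is not separate from the filter. When the rule asked for a read in 50% of cells, only Cd207 passed. The median log2 ratio of moLCs over eLCs was 0.61 over the 7 members read in 25% of cells and -0.10 over all genes. The value of 0.61 is that of Clec4n. Cd207, Clec4f, Clec4n and Clec4d had ratios above 0, and Ly75, Clec7a and Clec10a below it. No shift of the members as a set was read from this median. Passing the rule is a statement of size, without a test.

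**Figure D1:**
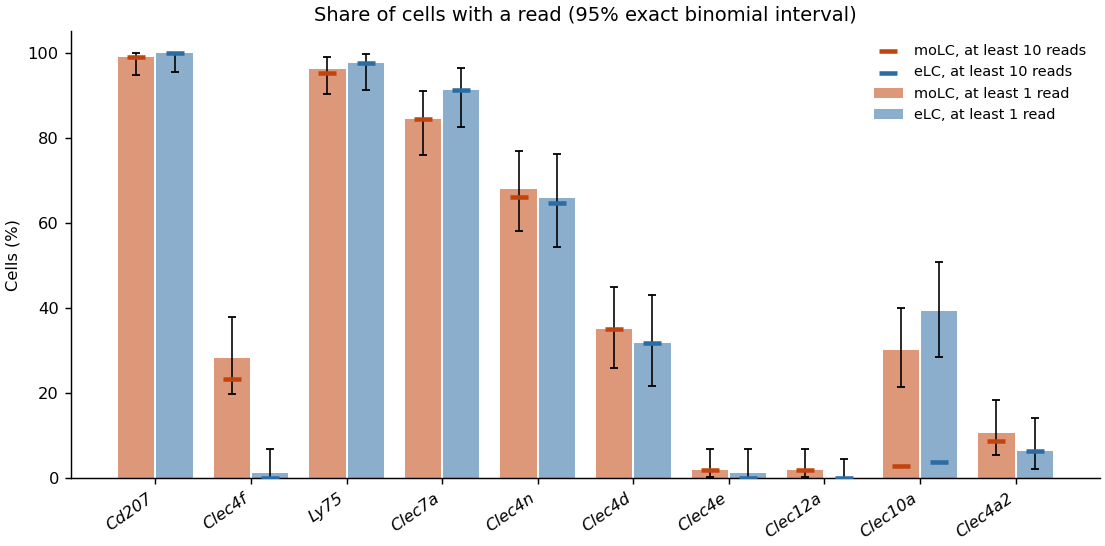
Share of moLCs and eLCs (percent of the cells of each origin, y axis) with at least 1 read of each member (bars, with exact 95% intervals) and with at least 10 reads (short horizontal lines). Cd207, Ly75 and Clec7a were read in most cells of both origins, Clec4f in 28.2% of moLCs and 1.27% of eLCs, and the bars of Clec10a rest on cells with fewer than 10 reads.

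At the depth of these libraries the median cell contained a read of 5 members in moLCs (1 to 8 over cells) and of 4 in eLCs (2 to 7). The order differed between plates, with medians of 4 in moLCs and 5 in eLCs on plate 1 and of 5 and 4 on plate 2. With every cell thinned to 2052512 reads (7 moLCs and 12 eLCs were too shallow for this), the medians were 5 and 4 overall and on each plate. The shares of cells with a read moved little with thinning. For Clec7a they were 84.5% of moLCs and 91.1% of eLCs as sequenced, and 85.4% and 92.5% after thinning. For Clec4f they were 28.2% and 1.27% as sequenced, and 27.1% and 0 of 67 cells after thinning.

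Among the endocytic receptors, Cd207 (chromosome 6, 83671215 to 83677857, minus strand) was read in every eLC and in every moLC but 1. On plate 1 the moLCs had from 0 to 60426 CPM with a median of 24684 CPM, and the eLCs from 261 to 5915 CPM with a median of 1801 CPM. On plate 2 the moLCs had from 467 to 51614 CPM with a median of 22978 CPM, and the eLCs from 76.5 to 7767 CPM with a median of 1018 CPM. The bulk of the cells of the 2 origins was separate on both plates, and the ranges overlapped through a small number of moLCs with low values. On plate 1, 59 of 67 moLCs (88.1%) were above the highest eLC of that plate, as were 31 of 36 (86.1%) on plate 2. Conversely, only 2 eLCs of each plate reached the 10th percentile of the moLCs of that plate. The middle part of the distributions, from the lower to the upper quartile, ran from 14444 to 35880 CPM in moLCs and from 783 to 2638 CPM in eLCs. The coefficient of variation of Cd207 over cells was 0.594 in moLCs and 0.650 in eLCs on plate 1, and 0.589 and 1.01 on plate 2. The log2 ratio of the summed CPM was 3.60 with a counting interval of 3.60 to 3.61, and it was 3.60 on plate 1 and 3.50 on plate 2. It stayed between 3.58 and 3.66 with each cell left out in turn.

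**Figure D2:**
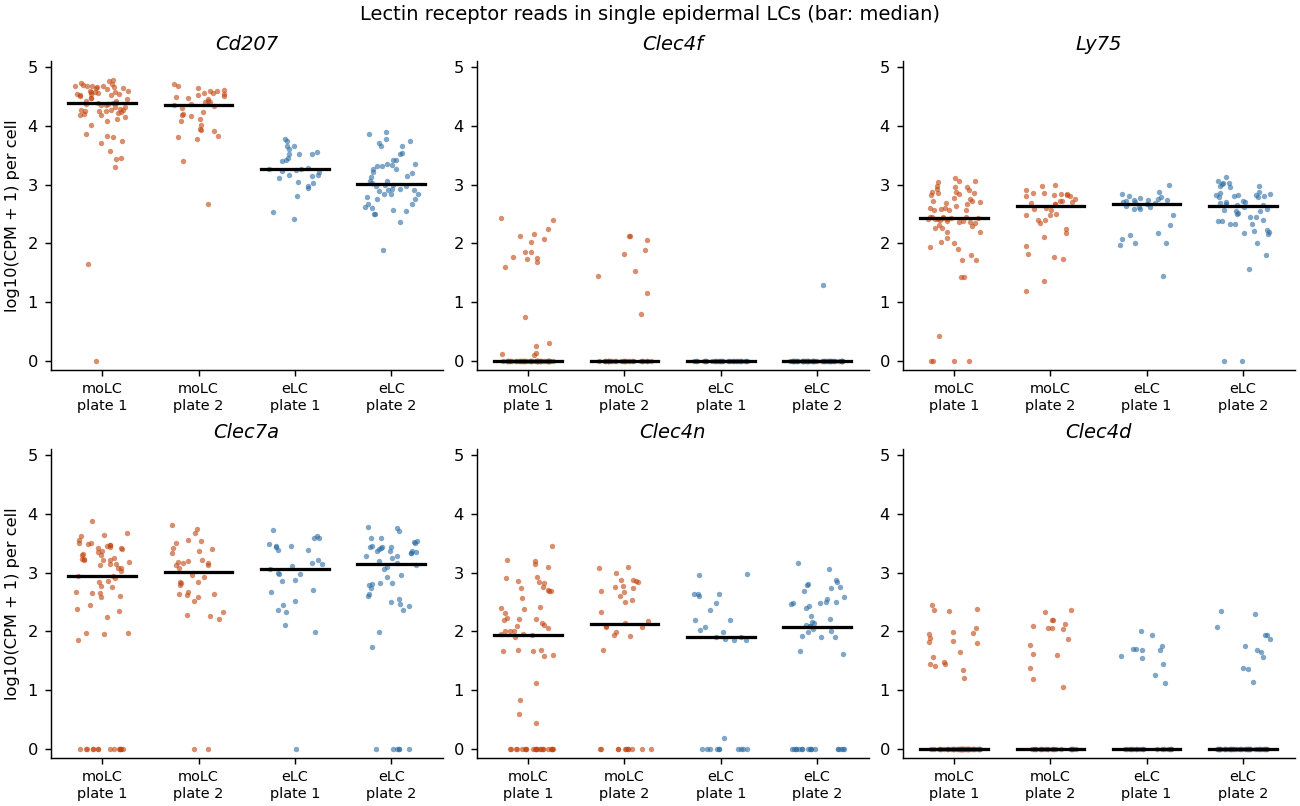
Reads of 6 members in each kept cell as log10(CPM + 1) (y axis) by origin and plate (x axis); each point is 1 cell and the black bar is the median. For Cd207 the medians of moLCs (24684 and 22978 CPM) lie above those of eLCs (1801 and 1018 CPM) on both plates, Clec4f reads are found in a subset of moLCs, and the other 4 panels overlap between origins.

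A few moLCs departed from the others in langerin, and they are described as single cells. The lowest moLC, on plate 1, had 2053825 reads and none of Cd207, together with 207 CPM of Ly75, 584 CPM of Clec7a, 112 CPM of Epcam and 881 CPM of H2-Aa. It was also the moLC with the lowest summed LC markers (14549 CPM), and it had 9601 CPM of Ccr7, the chemokine receptor that guides LCs to lymph nodes. The next lowest moLC, also on plate 1, had 42.6 CPM of Cd207. It held 1498 CPM of Clec4e, 3206 CPM of Clec7a and 1597 CPM of Clec4n, and its summed monocyte and macrophage markers (4821 CPM) were the highest of any moLC. The third, on plate 2, had 467 CPM of Cd207, 94.7 CPM of Clec12a and 357 CPM of Lyz2, a lysozyme gene of monocytes and macrophages. Lyz2 was read in 41.7% of all moLCs, and the summed LC markers of the third cell were 158874 CPM. The second and the third had reads of 6690 and 7212 genes, against a median of 4026 over moLCs. The next after the third, on plate 1, had 2000 CPM of Cd207 and 32.9 CPM of Clec12a. The part of such cells in the differences was measured by leaving out the first and the second together, which gave a Cd207 log2 ratio of 3.62 and again 2 members past the size rule.

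Clec4f (chromosome 6, 83644542 to 83656187, minus strand), a galactose-binding receptor best known from Kupffer cells of the liver, was read in a subset of moLCs. Among the 29 moLCs with a read, the count ran from 1 to 842 reads, with a median of 174 on plate 1 and 194 on plate 2, and 24 of them had at least 10 reads. On plate 1, Clec4f was read in 20 of 67 moLCs (29.9%, 19.3 to 42.3%) and in 0 of 29 eLCs, which allows a share of up to 10.3%. On plate 2, it was read in 9 of 36 moLCs (25%, 12.1 to 42.2%) and in 1 of 50 eLCs (2.0%, 0.0506 to 10.7%). The single eLC had 8 reads, or 18.5 CPM, and was the cell with the fewest reads of all kept cells (432614). The 2 origins differed in how many cells had a read, and the moLCs with a read were spread over both plates. The log2 ratio was 9.14 (8.16 to 10.35) in all cells, at least 9.45 on plate 1 against a floor of 3 reads over the group, and 7.89 on plate 2. Without the eLC that had reads it was at least 10.55, and with equal weight per cell in place of summed reads it was 6.50.

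Within moLCs, cells with a Clec4f read were found at low, middle and high levels of Cd207. The Spearman rho of the 2 genes was 0.05, with 0.03 on plate 1 and 0.11 on plate 2. The moLCs with at least 10 reads of Clec4f ranked from 8th to the highest of all moLCs in Cd207, with levels from 3697 to 60426 CPM. The median Cd207 level was 25366 CPM in the 29 moLCs with a Clec4f read and 23393 CPM in the other 74. The highest Clec4f level, 267 CPM, was in a moLC with 15426 CPM of Cd207.

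The gap between the 2 genes is 15 kb, with no annotated gene in it. The other genes nearest to Cd207 that were read in 25% of cells differed less. Beyond the 3′ end of Cd207 and past Clec4f, the log2 ratios were 0.67 for Stambp, -1.0 for Dguok, 0.42 for Tet3 and -0.38 for Bola3. On the 5′ side they were -0.21 for Tex261, -0.93 for Nagk, -0.49 for Paip2b, 0.15 for Gm5312 and 0.69 for Zfp638. Dguok, an enzyme of nucleotide metabolism, was -0.48 on plate 1, so Clec4f was the only 1 of the 10 neighbors past the size rule. Clec4f counted as a read neighbor through moLCs alone, so its pass is not separate from the 25% filter. Over all genes read in 25% of cells, 0.813% passed as higher in moLCs and 1.21% as higher in eLCs.

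**Figure D3:**
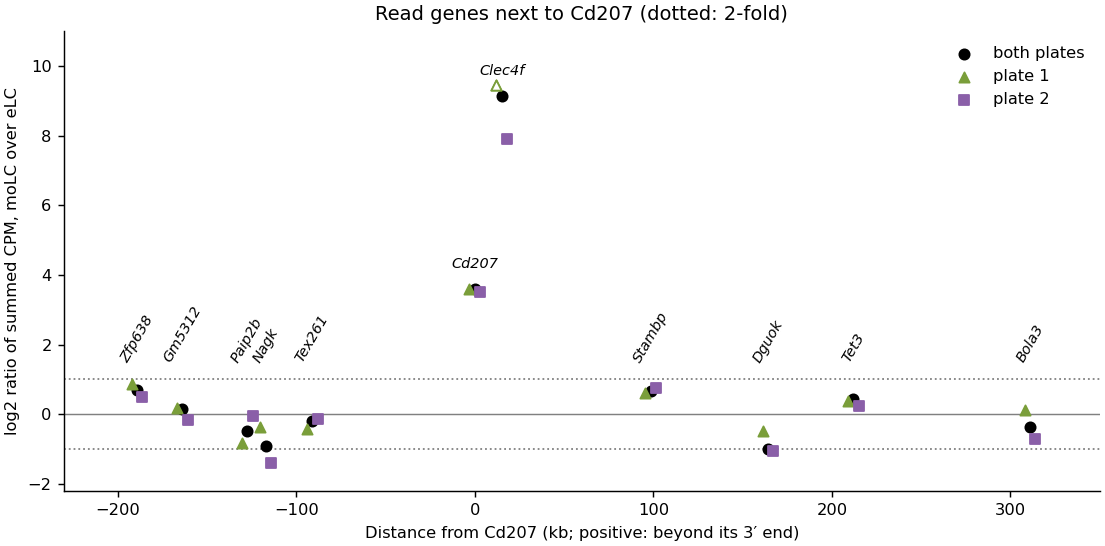
Log2 ratio of summed CPM, moLC over eLC (y axis), for Cd207 and the 10 nearest read genes against their distance from Cd207 in kb (x axis, positive beyond its 3′ end), in all cells and within each plate; the open triangle is a lower bound. Cd207 (3.60) and Clec4f (9.14) lie far above the 2-fold lines, while the other 9 genes lie between -1.41 and 0.85 in every setting shown.

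Ly75 (chromosome 2, 60292103 to 60383303, minus strand) encodes DEC-205, an endocytic receptor that delivers antigen for presentation, and was nearly as widely read as Cd207. The moLCs had from 0 to 1295 CPM with a median of 305 CPM, and the eLCs from 0 to 1368 CPM with a median of 439 CPM. A read was found in 99 moLCs (96.1%) and 77 eLCs (97.5%). The origins overlapped over nearly their whole ranges. Summed over cells, moLCs had 403 CPM (401 to 405) and eLCs 467 CPM (464 to 470.0), which gave a log2 ratio of -0.21 that was -0.13 on plate 1 and -0.20 on plate 2. It stayed between -0.25 and -0.17 with each cell left out in turn.

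Clec10a (chromosome 11, 70156197 to 70170834, plus strand), which encodes the galactose-binding receptor MGL1, had few reads per cell. It was read in 31 moLCs (30.1%) and 31 eLCs (39.2%), with 28.4% of moLCs and 58.6% of eLCs on plate 1 and the opposite order, 33.3% and 28%, on plate 2. The median count in these cells was 2 reads in both origins, and only 3 cells of each origin had at least 10 reads. The sums of 276 reads in moLCs and 542 in eLCs therefore rested on single cells. A moLC of plate 2 held 184 reads, and an eLC of plate 1 held 200. The log2 ratio was -1.44 in all cells, -2.92 on plate 1 and -0.25 on plate 2. Without that moLC, it was -3.01 in all cells, -2.92 on plate 1 and -3.38 on plate 2, which passes the size rule and brings the count of members past it to 3. Without that eLC it was -0.79, with -0.23 and -0.25 within the plates. No order of the origins was read from these sums.

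Clec7a (chromosome 6, 129461591 to 129472779, minus strand) encodes Dectin-1, the β-glucan receptor for fungal walls, and was the most abundant of the signaling receptors. GENCODE M21 lists it as a polymorphic pseudogene, a class for genes that are intact in some strains only. The moLCs had from 0 to 7612 CPM with a median of 895 CPM, and the eLCs from 0 to 5870 CPM with a median of 1272 CPM. The ranges overlapped, and cells without a read were found in both origins. Reads were present in 87 moLCs (84.5%, interval 76 to 90.9%) and in 72 eLCs (91.1%, interval 82.6 to 96.4%). The order of these shares differed between plates, with 79.1% of moLCs and 96.6% of eLCs on plate 1 and 94.4% and 88% on plate 2. Summed over cells, moLCs had 1402 CPM and eLCs 1637 CPM, which gave a log2 ratio of -0.22 (-0.23 and -0.18 within the plates).

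Clec4n and Clec4d lie beside each other in a cluster on chromosome 6 that spans 183 kb from Clec4a2 to Clec4e. Clec4n (123229843 to 123247021, plus strand) encodes Dectin-2, a receptor for mannans that signals through FcRγ. The moLCs had from 0 to 2786 CPM with a median of 98.6 CPM, and the eLCs from 0 to 1465 CPM with a median of 97.7 CPM. The medians were thus within 1 CPM of each other, and the upper quartiles were 471.5 CPM for moLCs against 305 CPM for eLCs. The upper quartiles lay apart on plate 2 (555 against 312 CPM) and close together on plate 1 (251 against 233 CPM). A read was found in 70 moLCs (68%) and 52 eLCs (65.8%). Summed over cells, moLCs had 278 CPM and eLCs 182 CPM, which gave a log2 ratio of 0.61 (0.64 and 0.73 within the plates), which is below 2-fold. Without the moLC with the most reads it was 0.49.

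Clec4d (123262111 to 123275265, plus strand) encodes Dectin-3, also called MCL, which pairs with other members of the cluster. It was read in 36 moLCs (35%) and 25 eLCs (31.6%). The moLCs with a read had from 27 to 766 reads with a median of 228, and the eLCs with a read from 10 to 753 reads with a median of 120. Every cell with a read thus had at least 10 reads. Whether cells without a read lacked the transcript cannot be told from these counts. The share of cells with a read had opposite orders on the plates, 29.9% of moLCs against 41.4% of eLCs on plate 1 and 44.4% against 26% on plate 2. Summed over cells, moLCs had 32.5 CPM and eLCs 20.3 CPM, which gave a log2 ratio of 0.68 (0.63 and 0.98 within the plates). Clec4n and Clec4d were the 2 members that passed only when the size rule asked for 1.5-fold. Without the moLC with the most reads of the gene, the log2 ratio on plate 1 was 0.42 for each of them, which is below 1.5-fold.

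Clec4e (123281789 to 123289870, minus strand) encodes Mincle, a receptor for mycobacterial glycolipids. It was read in 2 moLCs and 1 eLC, all on plate 1. The moLC with 42.6 CPM of Cd207 held 3305 of the 3345 reads in moLCs (98.8%), the other moLC held 40, and the eLC held 6. The log2 ratio of 8.66 therefore described 1 cell, and it was 2.28 without that cell. No kept cell of plate 2 had a read, which allows a share of up to 8.33% of its 36 moLCs and 6.0% of its 50 eLCs.

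The 2 receptors with an inhibitory motif were rare. Clec12a (chromosome 6, 129342691 to 129365303, plus strand), a receptor for uric acid crystals of dead cells, was read in 2 moLCs, with 72 and 244 reads, and in 0 of 79 eLCs, which allows a share of up to 3.80%. Against the floor of 3 reads the log2 ratio was at least 6.26, and at least 4.13 without the moLC that had 244 reads. These 2 moLCs were the ones with 2000 and 467 CPM of Cd207 described above. Clec4a2 (chromosome 6, 123106428 to 123143999, plus strand), which encodes DCIR, was read in 11 moLCs (10.7%, 5.45 to 18.3%) and 5 eLCs (6.33%, 2.09 to 14.2%). Summed over cells, moLCs had 3.36 CPM and eLCs 2.96 CPM (log2 ratio 0.18), which was -0.22 on plate 1 and 0.00 on plate 2. Without the moLC with 407 reads it was -0.55, so no order of the origins was read from it. GENCODE tags Clec4a2 as a locus that overlaps another, and how reads shared with such a locus or with near copies of the gene were counted is not given in the sources used here.

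**Figure D4:**
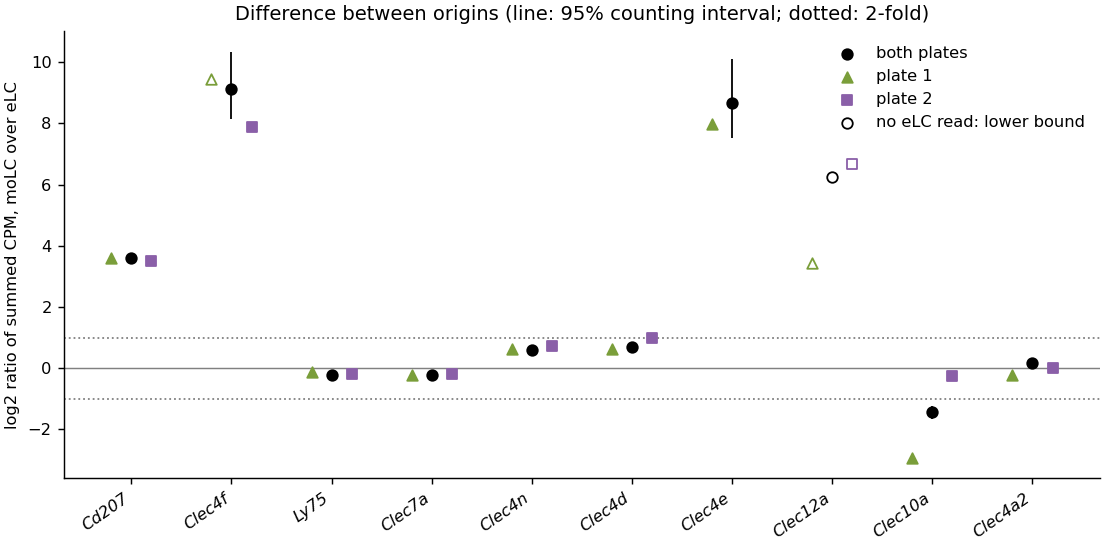
Log2 ratio of summed CPM, moLC over eLC (y axis), of the 10 members (x axis) in all cells with the 95% counting interval, and within plates 1 and 2; open markers are lower bounds where no eLC had a read, and dotted lines mark 2-fold. Cd207 (3.60) and Clec4f (9.14) lie above 2-fold on both plates, Ly75, Clec7a, Clec4n and Clec4d lie within 2-fold, and the points of Clec4e, Clec12a, Clec10a and Clec4a2 rest on few cells.

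Within an origin, the other receptors followed langerin from cell to cell weakly or not at all. Rank correlations are given as a description over cells of 1 sample, which share their preparation, and without p-values. In moLCs (67 cells on plate 1 and 36 on plate 2), the Spearman rho with Cd207 over all genes read in 25% of moLCs had a median of -0.04 and a 95th percentile of 0.21. Clec7a had a rho of 0.25 (0.17 on plate 1 and 0.45 on plate 2), Ly75 of 0.14 (0.15 and 0.19) and Clec4n of 0.03 (-0.04 and 0.24). Of the 6 members plotted, Clec7a was the only 1 above the 95th percentile in all moLCs, and this rested on plate 2, where the percentile was 0.25. On plate 1 it was 0.26, above the value of Clec7a. In the 79 eLCs the median over all genes was 0.02 and the 95th percentile was 0.31. Ly75 had a rho of 0.36 (0.30 and 0.40), Clec7a of 0.14 (0.27 and 0.13), Clec4n of 0.19 (0.65 and 0.10) and Clec4d of 0.19 (0.47 and 0.03). Ly75 was above the 95th percentile in all eLCs and on plate 2 (0.36 there) but not on plate 1 (0.33), whereas the values of Clec4n and Clec4d in eLCs were high on plate 1 (29 cells) and near 0 on plate 2 (50 cells). Cd207 itself had a rho with the cell's total reads of 0.30 in moLCs and 0.29 in eLCs, but the plates differed, with 0.38 and 0.09 in moLCs and -0.10 and 0.41 in eLCs on plates 1 and 2. With cells thinned to equal reads, the rho with Cd207 was 0.21 for Clec7a in moLCs and 0.41 for Ly75 in eLCs.

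**Figure D5:**
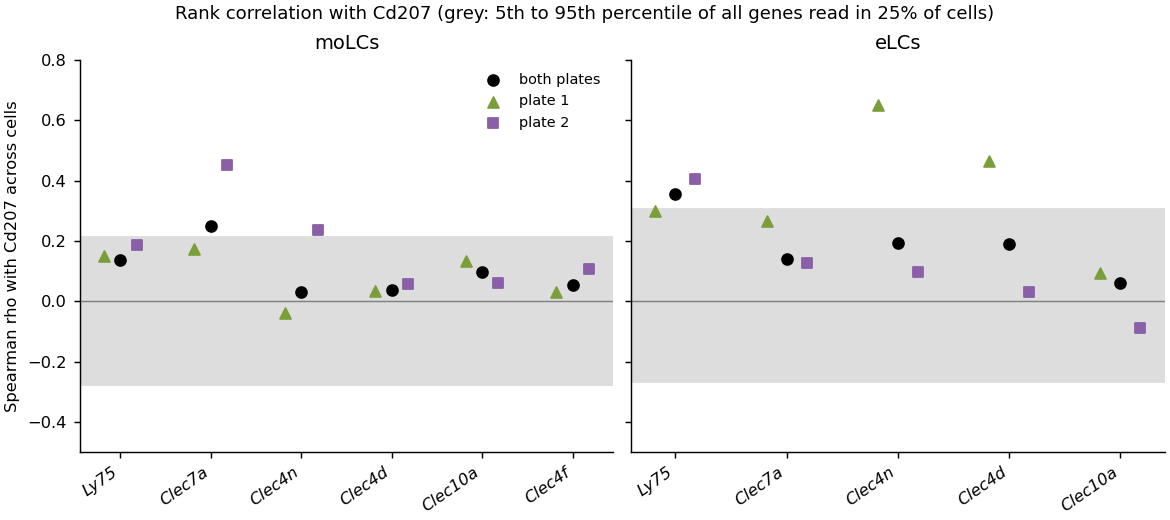
Spearman rho of each member with Cd207 across moLCs (left) and eLCs (right), in all cells and within plates 1 and 2 (y axis, no unit); the grey band spans the 5th to 95th percentile over all genes read in 25% of those cells. Clec7a (0.25) in moLCs and Ly75 (0.36) in eLCs lie above the band in all cells, and Clec4n and Clec4d in eLCs differ between plates.

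Of the pairs of members other than langerin, Clec4n and Clec4d, which are neighbors on the chromosome, had a rho of 0.46 in moLCs (0.35 on plate 1 and 0.64 on plate 2) and 0.27 in eLCs (0.49 and 0.15). Clec4n was read in 31 of the 36 moLCs with a Clec4d read (86.1%) and in 39 of the other 67 (58.2%). In eLCs these shares were 84% and 57.4%. Clec7a and Clec4d had a rho of 0.35 in moLCs (0.39 and 0.29) and -0.08 in eLCs. Clec7a was read in all 36 moLCs with a Clec4d read and in 51 of the other 67.

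The genes most like Cd207 were ranked by the mean of the rho on plate 1 and the rho on plate 2, among genes that 50% or more of the cells of that origin had a read of on each plate. In moLCs, among 2888 genes, they were Il1r2 (0.60), a decoy receptor for interleukin-1, then Smox (0.53), Serpinb9 (0.51) and 2 genes of MHC class II, H2-Aa (0.50) and H2-Eb1 (0.48). In eLCs, among 3223 genes, they were Hbegf (0.78), Tbc1d4 (0.63), the tight junction gene Cldn1 (0.56), Antxr2 (0.55) and Cd82 (0.55). No gene was in the first 5 of both origins. How often lists this short would share a gene was not worked out, so no difference between origins was read from this. Hbegf is the mouse counterpart of the DT receptor gene that the host allele carries in the Cd207 locus. Its level was low, with 2.59 Hbegf reads per 1000 Cd207 reads in eLCs. It was read in 87.3% of eLCs and 4.85% of moLCs, with summed levels of 5.60 CPM over eLCs and 3.10 CPM over moLCs. The moLC sum came from 5 cells, 1 of which held 230 of the 932 reads. The log2 ratio was -1.91 on plate 1 and 0.21 on plate 2. Whether the eLC reads came from Hbegf itself or from the receptor gene in the Cd207 locus was not tested. Its rho was therefore not read as Hbegf following langerin. For Clec4f in moLCs, among 2889 genes, the highest values were lower, with Atp11b (0.36), Sft2d2 (0.34), Ppp1r10 (0.34), Peli1 (0.33) and Tob1 (0.33).

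Other genes of these receptors' pathways were described from 3 lists. Their order within a list is by CPM, which was not scaled to exon length. Of all 6522 genes read in 25% of cells, 0.813% passed the size rule as higher in moLCs and 1.21% as higher in eLCs. With shares this low, a short list with no gene past the rule is not a result about its genes. Of 38 other C-type lectin receptor genes, 10 had no read, 6 were read in 25% of the cells of an origin and none passed the size rule. The log2 ratios of those 6 ran from -0.76 to 0.40 with a median of 0.10. The list members with the highest summed CPM were Cd72, an inhibitory receptor better known from B cells (365 CPM over moLCs, 323 CPM over eLCs), Mgl2, a galactose-binding receptor (337 and 334 CPM), and Cd69, an early activation marker (59.7 and 47.7 CPM). Of 18 signaling genes, 16 were read in 25% of cells and none passed, with log2 ratios from -0.34 to 0.82 and a median of 0.12. The highest CPM were those of the adaptors Tyrobp (1212 CPM over moLCs, 1456 CPM over eLCs) and Fcer1g, which encodes FcRγ (567 and 618 CPM), and of Malt1, a protease downstream of Syk (439 and 382 CPM). Of 12 trafficking and endocytosis genes, 10 were read in 25% of cells, 2 had no read and none passed, with log2 ratios from -0.46 to 0.50 and a median of -0.19. The highest CPM were those of Rab7, a GTPase of late endosomes (324 and 413 CPM), the clathrin adaptor gene Ap2m1 (294 and 265 CPM) and Rab11a, a GTPase of recycling endosomes through which langerin is known to pass (126 and 174 CPM).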

How the data were processed

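Single LCs were sorted as CD45+ cells without lineage markers and with CD11c, CD11b, CD24, MHCII and CD326, and their origin was taken from the labels. The authors made cDNA with a Takara Smart-Seq kit and aligned paired reads of 75 bases to mm10 with STAR. They deposited raw counts of reads per gene and cell. In 8 cells, 9 deposited values end midway between whole numbers, so these columns were treated like expected counts and rounded. The counter and annotation are not given in the sources used here, and the kit adds no molecular identifiers.

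Cells with at most 5% of reads on mitochondrial genes were kept, as in the paper's methods. CPM, RPKM (exon lengths of GENCODE M21), shares, log2 ratios and rank correlations came from Python 3.11.15 (numpy 2.4.6; pandas 2.3.3; scipy 1.17.1), and figures from matplotlib 3.10.9. Where no cell of an origin had a read, 3 reads over the group stood in. The paper's rank-sum test on single cells was not run, because cells of 1 sample are no replicates. No doublet caller was run on these singly sorted cells. The members, lists and motifs were chosen with earlier results of these data known. Named genes were the members, each list gene past the size rule, the 3 most abundant of each list, the 5 read genes on each side of Cd207, the 5 with the highest rho with Cd207 or Clec4f, and Hbegf. The size rule was tested on simulated counts. Alternatives were each plate, no mitochondrial filter, a minimum of 1000 genes, equal weight per cell, TMM factors (edgeR 4.0.16 in R 4.3.3), totals without the 50 genes with the most reads or without Cd207, thinning, each cell left out, other thresholds, and, chosen after seeing the data, leaving out 2 moLCs. Protein levels were not analysed here.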

Additional observations from a re-analysis of the deposited data

Results flagged for a closer look

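The 3 moLCs of plate 2 that the mitochondrial filter left out, with 9.97%, 14% and 29.3% of reads on mitochondrial genes, entered no comparison, and their reads are given here. The first had 3960 CPM of Clec4e (2268 reads), above the highest kept cell (1498 CPM) and on the plate where no kept cell had a Clec4e read, and it had no Cd207 read. The third had 23.9 CPM of Cd207 (22 reads), and the second had none, whereas the lowest kept moLC of plate 2 had 467 CPM. Clec7a was read in all 3, at 2979, 5260 and 215 CPM. Both values were noted because they are in cells outside the comparisons and exceed 3 reads.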

How the results depend on the processing

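The log2 ratio of Cd207 (3.60) was 3.60 on plate 1 and 3.50 on plate 2. It was 3.59 without the mitochondrial filter, 3.64 with equal weight per cell, 3.71 with TMM factors, 3.67 with totals without the 50 genes with the most reads, 3.64 with totals without Cd207, 3.55 after thinning and 3.62 without the 2 moLCs at the ends of the LC and monocyte lists. Leaving out each cell gave 3.58 to 3.66. TMM factors moved the median of all genes by 0.10. The log2 ratio of Clec4f (9.14) was 6.50 with equal weight per cell. The number of members past the size rule (2) was 4 at 1.5-fold and 1 (Cd207) at a read in 50% of cells, and leaving out each cell gave 2 to 3. Over all alternatives, 63 of the log2 ratios moved beyond their counting interval and 56 did not, and no ratio of a member past the rule changed sign. The minimum of 1000 genes left out no cell. No paired analysis was possible because cells carry no replicate number and no animal. Allele, irradiation and origin cannot be told apart in these data, and counting intervals do not cover differences between animals. At this depth, differences were not detectable for Clec4e, Clec12a, Clec10a and Clec4a2, which rest on few cells or few reads.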

Other observations

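Outside the rule for named genes, 2 further lectin genes were looked at after their values were seen. Klrb1b, an inhibitory receptor known from natural killer cells, summed to 42.6 CPM over moLCs against 4.75 CPM over eLCs (log2 ratio 2.29 on plate 1 and 4.07 on plate 2). Reads were present in 23.3% of moLCs against 11.4% of eLCs, under the 25% that the size rule asks for. Mrc1, the mannose receptor of macrophages, was read in 3 moLCs and in 0 of 79 eLCs.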
